A study of Rattus norvegicus with 12 samples.

Results

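The mitochondrial ribosome and the mitochondrial tRNA synthetases were followed in the hearts of rats with and without myocardial infarction (MI). Members were the rows of the gene count table whose gene name starts with Mrpl or Mrps and a digit, for proteins of the large and of the small ribosomal subunit, or ends in ars2, for the synthetases. This name rule found 88 rows of 30560, made up of 43 large subunit rows, 29 small subunit rows and 16 synthetase rows. RNA was sequenced from 12 male Wistar rats with 1 library per rat, from left ventricle sections that had been fixed in formalin and embedded in paraffin. Surgery was done at 7 weeks of age. The 4 Sham rats had the chest opened without ligation and were given vehicle (0.5% carboxymethylcellulose). The 4 MI rats had the left anterior descending coronary artery tied permanently and were given the same vehicle. The 4 MI + UA rats had the same ligation and were given urolithin A (UA), a gut microbial metabolite of dietary ellagitannins that is known to induce mitophagy, by daily gavage for 8 weeks, with a dose and a starting day that the sources state differently. All 12 hearts had gone through thoracotomy and gavage, and rats with small infarcts had been excluded by echocardiography. One rat (Rat_66) carries an MI + UA label while a supplementary list of the study places it with the vehicle rats, and it was kept as labelled.

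Mammalian mitochondria make 13 proteins from their own DNA, all of them subunits of the respiratory chain and the ATP synthase. The ribosome that makes them has its RNA encoded in the mitochondrial genome, while its proteins and the enzymes that charge its tRNAs are encoded in the nucleus, made in the cytosol and imported. A large subunit catalyses peptide bond formation and holds the exit tunnel, a small subunit binds the mRNA and decodes it, and each synthetase joins 1 kind of amino acid to its tRNA. The heart is among the tissues richest in mitochondria, and inherited loss of several of these proteins causes cardiomyopathy.

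Of the 88 rows, 84 had at least 10 counts over the 12 libraries and were tested, namely 42 of the large subunit, 28 of the small subunit and 14 synthetases. The tested rows ranged from 30 counts in total for Mrps17 to 7301 for Mrpl51. The other 4 rows were at 0 in every rat. Among them were Tars2, the synthetase for threonine, Mrps21l, and a second row named Mrpl42 (ENSRNOG00000025964). A count of 0 allows up to 3 counts per library, or between 0.158 and 0.482 counts per 1000000 reads (CPM) at these depths, counting error only. RefSeq names 45 pseudogenes or like genes after 26 of the member symbols, among them 4 after Mrps36 and 3 after Mrpl42, so reads of these genes could be split between copies or lost.

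The libraries held between 6228706 and 19031695 reads on genes. The 13 mitochondrially encoded protein genes took 50.2% to 58.6% of them, and the members together took 0.0943% to 0.122%. The share of all counted reads that fell on genes was 46.9% to 48.4% in Sham, 43.3% to 44.8% in MI and 42.9% to 47.2% in MI + UA. All 9 cardiomyocyte markers tested were lower in MI than in Sham by edgeR's quasi-likelihood test with Benjamini-Hochberg adjustment over all genes, while 7 of 8 fibroblast markers and 7 of 8 macrophage markers were higher. Of the other marker lists, 1 of 6 endothelial genes was lower, 3 of 6 smooth muscle and pericyte genes were higher, and none of 6 lymphocyte and 2 adipocyte genes passed the test. With library size alone 4 of the 9 cardiomyocyte markers were called lower, and without Rat_38 of Sham 6 were. In bulk tissue, fewer cells of a type and less RNA per cell cannot be told apart.

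To ask how the 2 subunits and the synthetases behaved after infarction, their levels were first compared rat by rat. The level of a class was the mean of its genes' log2 CPM, with CPM scaled by the trimmed mean of M values (TMM). The large subunit stood at 3.45, 3.57, 3.55 and 3.61 in the Sham rats (Rat_12_1, Rat_17, Rat_32 and Rat_38, an order kept below), at 3.22, 3.29, 3.30 and 3.27 in the MI rats (Rat_36, Rat_57, Rat_61 and Rat_89) and at 3.33, 3.23, 3.32 and 3.37 in the MI + UA rats (Rat_29, Rat_58, Rat_64 and Rat_66). On this scale every Sham rat lay above every rat with an infarct, and the MI and MI + UA rats overlapped. Scaled by library size alone, the groups overlapped, with the large subunit at 3.29 to 3.53 in Sham, 3.19 to 3.49 in MI and 3.27 to 3.41 in MI + UA.

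The small subunit showed the same arrangement of groups. The Sham rats averaged 3.10 ± 0.0738 (SD, n = 4 here and for the means that follow), the MI rats 2.84 ± 0.0445 and the MI + UA rats 2.89 ± 0.0755. For the synthetases these means were 3.23 ± 0.0316, 2.96 ± 0.0719 and 2.97 ± 0.123. In both classes the lowest Sham rat was, under TMM, above the highest rat of either infarct group, and the lowest of all 12 rats for the synthetases was Rat_58 of MI + UA at 2.79. With library size alone Sham overlapped both infarct groups, at 2.90 to 3.12 against 2.80 to 2.97 in MI and 2.80 to 3.04 in MI + UA for the small subunit, and at 3.06 to 3.15 against 2.80 to 3.14 and 2.97 to 3.08 for the synthetases. The levels of the marker lists also differed between the groups. The cardiomyocyte markers were lower in the infarct groups, and the fibroblast and macrophage markers were higher. The cardiomyocyte markers summed to between 15960 and 18600 CPM in Sham, 10660 and 11360 CPM in MI, and 11190 and 14020 CPM in MI + UA. The fibroblast markers summed to 1132 to 1438 CPM in Sham, 2196 to 3582 CPM in MI and 2213 to 3695 CPM in MI + UA. The macrophage markers summed to 86.7 to 101 CPM, 153 to 204 CPM and 138 to 215 CPM in the same order. None of the markers that define these cell types was at 0, and their part in the level of the members was not tested.

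**Figure D1:**
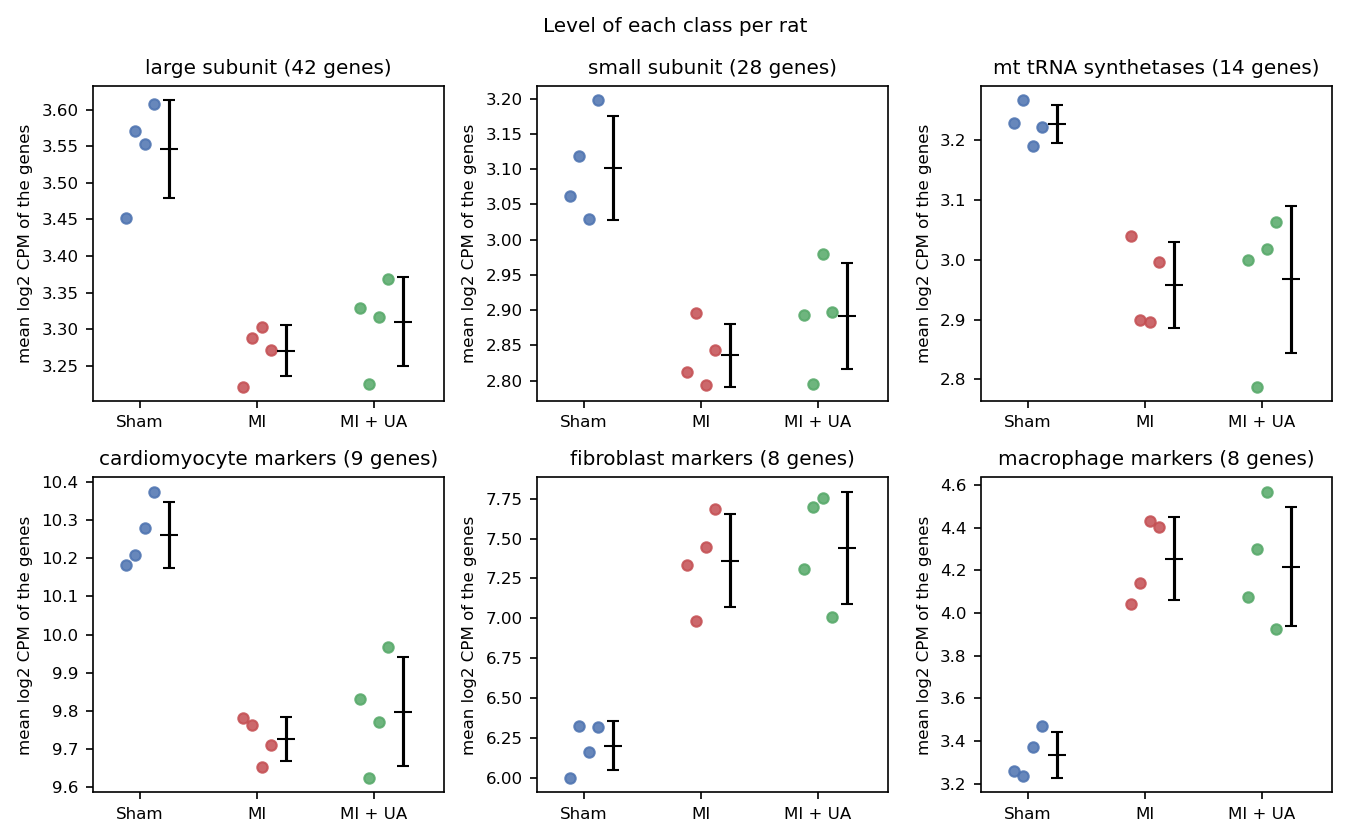
Mean log2 CPM of the tested genes of each class and of 3 marker lists, with 1 point per rat and the group mean ± SD (n = 4) beside the points. Under TMM scaling, in all 3 classes the Sham rats sit above every MI and MI + UA rat, the cardiomyocyte markers are arranged in the same way, and the fibroblast and macrophage markers are higher in both infarct groups.

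In MI versus Sham, 21 members passed an adjusted p of 0.05 in edgeR's test, and all 21 were lower in MI. They comprised 13 of 42 large subunit genes (31.0%), 6 of 28 small subunit genes (21.4%) and 2 of 14 synthetases (14.3%). The classes follow the gene names, and the called small subunit genes include Mrps30 and Mrps36, whose proteins are placed elsewhere, as described below. Over all 18182 genes tested, 5.53% were called lower. Counting every tested member, 77 of 84 had a log2 fold change below 0, and the median change was -0.31 for the large subunit, -0.31 for the small subunit and -0.34 for the synthetases, beside 0.03 for all genes tested. The changes were small, since the largest fall among the called members was -0.73 (Mrps35) and the smallest was -0.32 (Mrps18b). Among the 82 members with an average log2 CPM of at least 1, the MI rats all lay below the Sham rats in 27 (32.9%), against 10.7% of the 11986 genes at such a level. The difference in called share between the 3 classes was not tested.

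These counts rested on the rats and on the scaling. Without Rat_38 of Sham the number of called members was 11, and without Rat_61 of MI it was 12, with 8 large subunit genes left without Rat_38 and 3 small subunit genes left without Rat_17, Rat_38 or Rat_61. No synthetase was called without Rat_32, Rat_38, Rat_61 or Rat_89, and 1 without Rat_12_1, Rat_17, Rat_36 or Rat_29. Mrpl3, Mrpl4, Mrpl15, Mrpl16, Mrpl38, Mrpl42, Mrpl45, Mrpl51, Mrps30, Mrps35 and Mrps36 were called with any single rat left out, while Mrpl12, Mrpl14, Mrpl37, Mrpl40, Mrpl47, Mrps5, Mrps14, Mrps18b, Lars2 and Wars2 each lost the call without at least 1 rat. Scaled by library size alone, 1 member was called (Mrps35), and of all called genes 10.9% rather than 48.7% were lower in MI. That scaling raised the median change of all genes from 0.03 to 0.22. The members' median lay 0.34 below that of all genes under either scaling, a gap that a scaling of whole libraries leaves nearly fixed by construction.

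**Figure D2:**
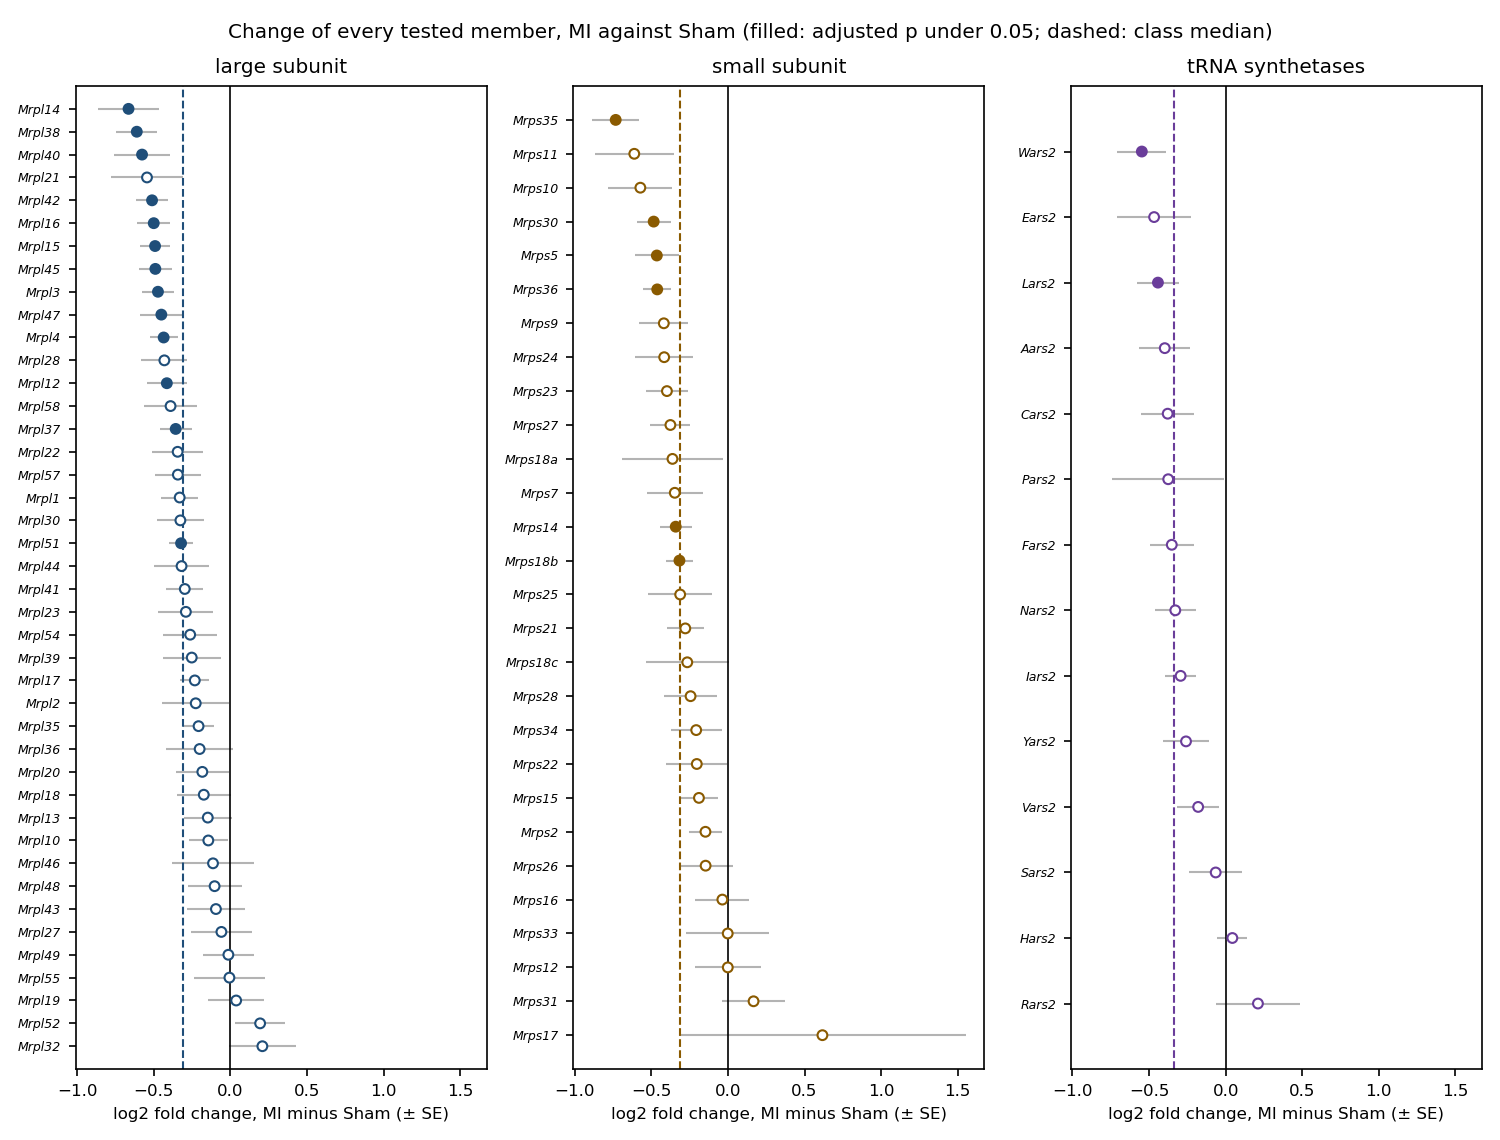
Log2 fold change of MI minus Sham for each of the 84 tested members, ordered within its class, with the standard error as a bar. Filled points passed an adjusted p of 0.05 in edgeR's test (13 large subunit, 6 small subunit, 2 synthetases), and all of these lie left of 0.

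The largest set of called genes was that of the large subunit. Mrpl15 (ENSRNOG00000008566), a core protein conserved from bacteria, was at 28.0, 26.4, 26.4 and 27.5 CPM in the Sham rats, 20.8, 19.0, 18.1 and 19.1 CPM in the MI rats and 19.7, 21.1, 22.5 and 24.6 CPM in the MI + UA rats. Sham lay above both infarct groups without overlap, and all MI + UA rats but Rat_29 lay above every MI rat. The log2 fold change of MI against Sham was -0.49 (SE 0.10, edgeR adjusted p = 0.0023). Mrpl42 (ENSRNOG00000042740), a protein with no bacterial counterpart, was at 27.7, 28.6, 21.2 and 24.8 CPM in Sham, 19.2, 16.8, 18.1 and 17.7 CPM in MI and 17.8, 19.8, 20.2 and 19.5 CPM in MI + UA. The Sham rats spread widely for this gene, and the lowest of them, Rat_32, was still above every infarct rat. Its log2 fold change was -0.51 (SE 0.11, edgeR adjusted p = 0.00301).

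Mrpl4, Mrpl3 and Mrpl16 were the other 3 of the 5 large subunit genes with the smallest p-values. Mrpl4 (ENSRNOG00000020659), which lines the tunnel, was at 51.2, 46.2, 51.2 and 54.4 CPM in Sham, 39.6, 37.5, 40.0 and 33.2 CPM in MI and 41.3, 35.7, 37.6 and 42.3 CPM in MI + UA. Both infarct groups lay below Sham, and MI differed from Sham by -0.44 on the log2 scale (SE 0.09, edgeR adjusted p = 0.00325). Mrpl3 (ENSRNOG00000012650), which reaches towards the catalytic centre, was at 51.7, 49.4, 53.9 and 59.4 CPM in Sham, 40.6, 40.0, 41.4 and 32.7 CPM in MI and 41.5, 31.5, 40.1 and 39.9 CPM in MI + UA. In each infarct group 1 rat, Rat_89 and Rat_58, lay well under the other 3. The log2 fold change was -0.47 in MI (SE 0.10, edgeR adjusted p = 0.00434). Mrpl16 (ENSRNOG00000021005), which helps to place the tRNAs, was at 24.3, 23.4, 26.1 and 27.2 CPM in Sham and at 16.1, 16.9, 18.6 and 19.7 CPM in MI, again without overlap (log2 fold change -0.50, SE 0.11, edgeR adjusted p = 0.00354).

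Of the other 8 large subunit genes, Mrpl38, Mrpl45, Mrpl51, Mrpl14, Mrpl12 and Mrpl40 also had groups that did not overlap, while Mrpl37 and Mrpl47 overlapped in 1 rat or more. Mrpl45, which sits at the mouth of the exit tunnel and ties the ribosome to the inner membrane, changed by -0.49 (SE 0.11). Mrpl12, a stalk protein that also binds the mitochondrial RNA polymerase, was at 15.8, 19.2, 19.2 and 18.6 CPM in Sham and 12.2, 14.9, 15.2 and 12.6 CPM in MI, so that the lowest Sham rat and the highest MI rat were close (log2 fold change -0.41, SE 0.13, edgeR adjusted p = 0.0416). The most counted member, Mrpl51, changed by -0.32 (SE 0.08). At the other end of the class, Mrpl32 (0.21, SE 0.22) and Mrpl52 (0.19, SE 0.16) had the highest log2 fold changes and did not pass the test (edgeR adjusted p of 0.633 and 0.529).

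In the small subunit list, Mrps35 (ENSRNOG00000001842) changed most. It was at 14.4, 16.0, 15.8 and 17.4 CPM in Sham, 12.6, 10.0, 8.61 and 6.93 CPM in MI and 9.71, 11.3, 11.0 and 11.3 CPM in MI + UA. The MI rats spread widely but stayed under Sham, and the MI + UA rats lay inside their range (MI against Sham log2 fold change -0.73, SE 0.15, edgeR adjusted p = 0.00322). Mrps36 (ENSRNOG00000061213) carries a ribosomal name but is now placed in the 2-oxoglutarate dehydrogenase complex of the citric acid cycle. It was at 49.1, 63.8, 56.7 and 60.4 CPM in Sham, 42.6, 41.6, 43.0 and 39.8 CPM in MI and 43.2, 42.9, 38.6 and 47.2 CPM in MI + UA. The 4 MI rats differed little among themselves and all lay under Sham (log2 fold change -0.46, SE 0.09, edgeR adjusted p = 0.0023).

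Mrps30 (ENSRNOG00000012136) was named for the small subunit, although structures of the mammalian ribosome show it in the large one. It was at 28.1, 21.4, 25.6 and 26.6 CPM in Sham, 18.7, 16.3, 17.1 and 20.1 CPM in MI and 21.2, 21.1, 18.9 and 23.7 CPM in MI + UA. MI lay under Sham with Rat_17 and Rat_89 closest to each other, and MI + UA reached into both other groups (MI against Sham log2 fold change -0.49, SE 0.11, edgeR adjusted p = 0.00618). Mrps18b, Mrps14 and Mrps5 completed the called genes, with log2 fold changes of -0.32 (SE 0.09), -0.34 (SE 0.10) and -0.46 (SE 0.14). Mrps5 lies near the mRNA entrance and bears on the accuracy of decoding.

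Mrps12, the protein of the decoding centre, was at 3.01, 3.90, 4.21 and 5.72 CPM in Sham and 4.53, 5.02, 4.26 and 3.26 CPM in MI, with the groups fully mixed and a log2 fold change of 0.00 (SE 0.22). Mrps17 had the highest log2 fold change of the class, 0.62, at 30 counts in all and with an SE of 0.94.

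Among the synthetases, those for tryptophan and leucine passed the test. Wars2 (ENSRNOG00000019508) was at 11.9, 9.24, 12.3 and 12.6 CPM in Sham, 8.12, 8.47, 7.58 and 7.50 CPM in MI and 8.28, 6.55, 7.85 and 10.9 CPM in MI + UA. MI lay under Sham, with Rat_17 near its upper edge, and Rat_66 of MI + UA lay inside the Sham range (MI against Sham log2 fold change -0.55, SE 0.16, edgeR adjusted p = 0.0294). Lars2 (ENSRNOG00000004760) was at 12.5, 14.0, 12.6 and 13.2 CPM in Sham, 10.0, 10.5, 7.99 and 10.1 CPM in MI and 8.57, 11.0, 8.26 and 10.8 CPM in MI + UA, with both infarct groups below Sham. Its log2 fold change in MI was -0.44 (SE 0.14, edgeR adjusted p = 0.0416), a call lost when any of 8 of the 12 rats was left out. Groups did not overlap in 5 of the 14 synthetases (35.7%), beside 10.7% of all genes at that level. Besides these 2 they were Aars2, Yars2 and Ears2, for alanine, tyrosine and glutamate, with adjusted p-values of 0.146, 0.331 and 0.249 in edgeR's test. Hars2, which charges the histidine tRNA, was at 24.8, 27.9, 31.1 and 28.3 CPM in Sham, 28.7, 29.8, 30.9 and 26.2 CPM in MI and 30.7, 26.3, 28.1 and 26.4 CPM in MI + UA, so the 3 groups lay over each other (MI against Sham log2 fold change 0.04, SE 0.10). The serine enzyme Sars2 also overlapped (-0.07, SE 0.17). Iars2, the synthetase with the most counts, changed by -0.29 (SE 0.10, edgeR adjusted p = 0.0737), and Pars2, with the fewest of those tested, by -0.38 (SE 0.36).

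**Figure D3:**
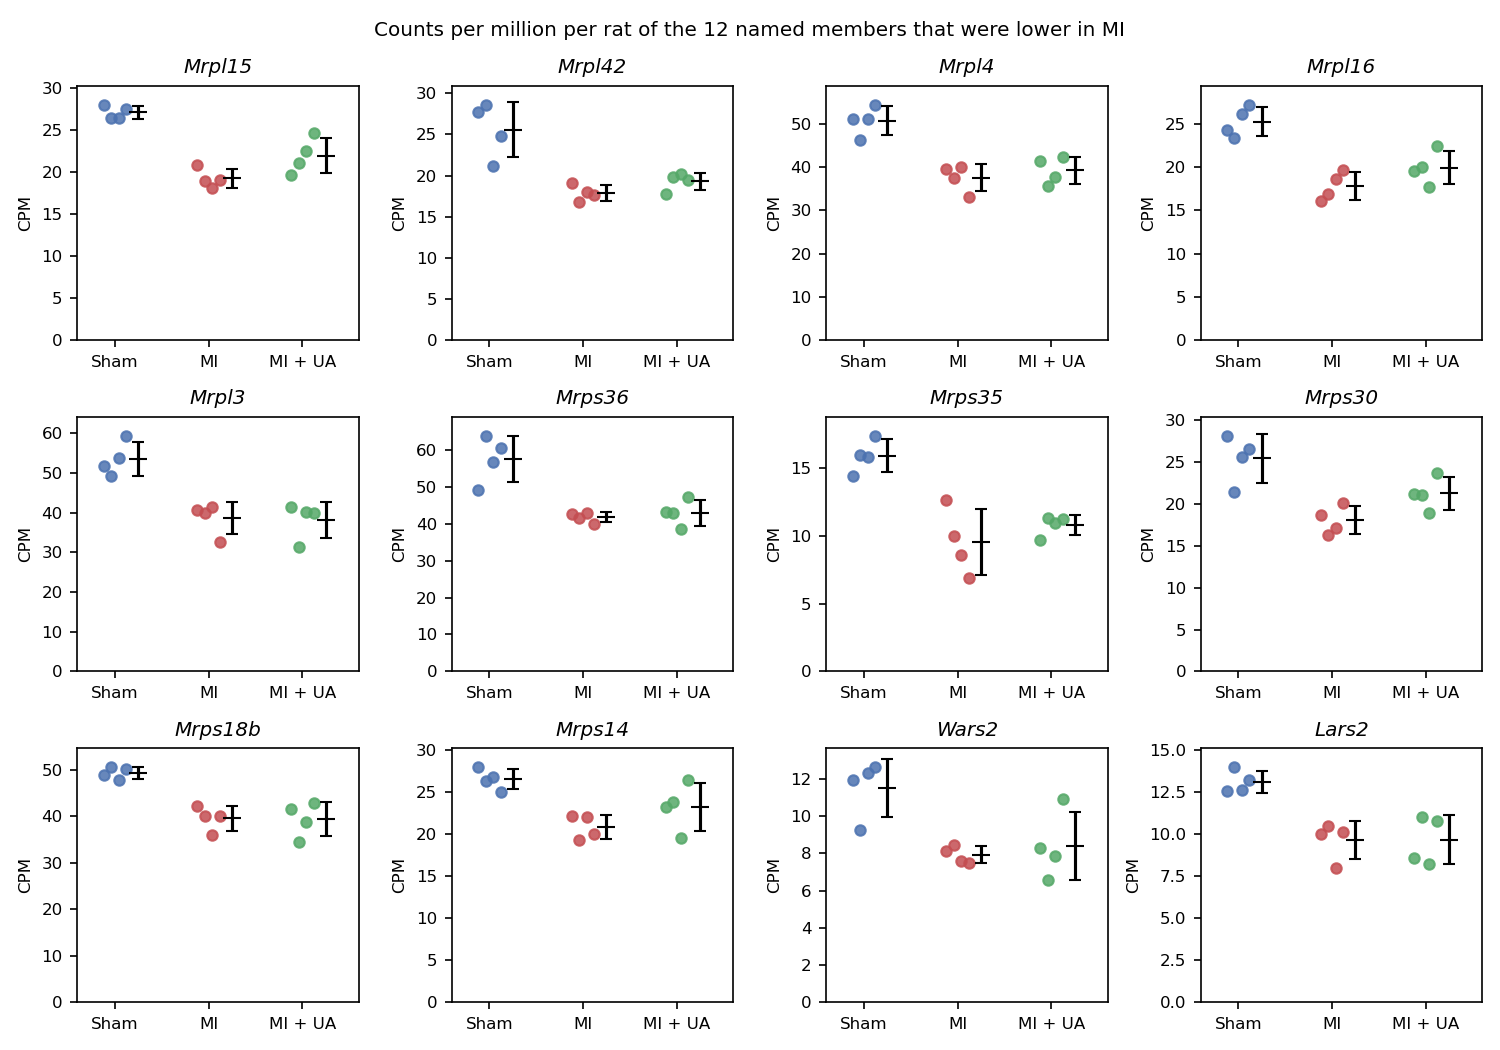
CPM, scaled by TMM, of the 5 large subunit, 5 small subunit and 2 synthetase genes with the smallest p-values among those lower in MI, with 1 point per rat and the group mean ± SD (n = 4). In each panel the MI rats lie below the Sham rats, and the MI + UA rats overlap the MI rats.

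The promoters of genes for mitochondrial proteins are known for sites of the factors NRF1, of the ETS family (GABPA) and of YY1. RefSeq promoter windows from 250 bases before to 50 after the gene start (build GRCr8) were found for 70 of the 87 member symbols, 72 windows in all. Short letter strings of these sites were searched on both strands, TGCGCA for NRF1, CCGGAAG for ETS factors and AAGATGGC for YY1. The NRF1 string reads the same on both strands, and strings of 2 factors overlapped in 4 of all 33469 windows and in no member's. The NRF1 string was in 27.8% of the members' windows and 7.24% of all windows, the ETS string in 34.7% and 8.75%, and the YY1 string in 23.6% and 3.17%. Windows of protein-coding genes alone held them in 8.74%, 10.7% and 3.67%. The 3 classes held them in like shares, from 26.7% to 28.6% for NRF1, 31.4% to 40.0% for ETS and 20.0% to 27.3% for YY1. Members with and without each string had similar median changes in MI, -0.31 and -0.33 for NRF1, -0.29 and -0.33 for ETS and -0.35 and -0.32 for YY1. The number called lower was 3 of 20 with and 13 of 49 without the NRF1 string, 3 of 25 and 13 of 44 for ETS, and 5 of 17 and 11 of 52 for YY1. Any of the 3 strings was in 47.1% of the windows of called members and 68.5% of those of members tested and not called, a difference that was not tested. A match describes letters in a window and is no evidence of binding.

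Both the NRF1 and the YY1 string were in the windows of 5 members (Mrpl32, Mrpl36, Mrps18a, Mrps18b and Wars2). Shown here are the windows of the 2 that were called lower in MI, Mrps18b (chr20:2842756-2843055, plus strand) and Wars2 (chr2:189150111-189150410, plus strand), and of Mrpl32 (chr17:55260401-55260700, plus strand), which had one of the highest changes of the large subunit. Mrps18a (-0.36) and Mrpl36 (-0.20) also had log2 fold changes below 0 and were not called. Capitals mark the 3 strings on either strand, and Mrps18b also holds the ETS string.
Mrps18b: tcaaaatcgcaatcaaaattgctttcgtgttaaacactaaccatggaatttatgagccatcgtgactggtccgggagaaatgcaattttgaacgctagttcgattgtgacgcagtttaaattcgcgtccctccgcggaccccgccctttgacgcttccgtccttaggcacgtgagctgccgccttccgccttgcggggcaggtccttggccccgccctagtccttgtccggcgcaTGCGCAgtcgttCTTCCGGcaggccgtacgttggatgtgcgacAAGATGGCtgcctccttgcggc
Wars2: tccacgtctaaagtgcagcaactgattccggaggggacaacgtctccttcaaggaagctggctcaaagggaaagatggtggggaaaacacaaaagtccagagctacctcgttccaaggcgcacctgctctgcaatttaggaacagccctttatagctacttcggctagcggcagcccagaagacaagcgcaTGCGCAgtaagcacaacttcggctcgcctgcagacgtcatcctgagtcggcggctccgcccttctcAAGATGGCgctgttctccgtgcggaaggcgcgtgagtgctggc
Mrpl32: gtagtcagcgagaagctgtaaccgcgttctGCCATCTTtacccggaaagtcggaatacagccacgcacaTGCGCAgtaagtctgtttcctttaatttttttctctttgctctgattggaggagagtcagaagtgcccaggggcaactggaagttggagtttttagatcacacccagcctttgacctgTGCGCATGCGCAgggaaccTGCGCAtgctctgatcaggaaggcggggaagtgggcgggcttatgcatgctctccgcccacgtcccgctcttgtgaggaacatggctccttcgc
In Mrps18b and Wars2 the YY1 string begins after the gene start and reads in the direction of the gene. In Mrpl32 the NRF1 string occurs 4 times, and the YY1 string begins 220 bases upstream on the other strand. The gene Psma2 on that strand starts 210 bases upstream of the start of Mrpl32. The YY1 string in this window thus lies just past the start of Psma2 and reads in the direction of Psma2. Of the 17 members with the YY1 string, 13 held it after the start in the direction of the gene. Among these 13, 5 were called lower in MI and 8 were not, with log2 fold changes from -0.57 (Mrps10) to -0.01 (Mrpl49).

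In the same annotation, 19 members had a gene on the opposite strand whose start lay within 500 bases upstream, so that the 2 genes run head to head, and in 18 of them that neighbour was tested. Of the tested neighbours, 2 were called lower in MI, beside 5.53% of all genes tested. Mrpl47 and its neighbour Ndufb5, a subunit of respiratory complex I, were both lower in MI, with log2 fold changes of -0.45 (SE 0.14) and -0.53 (SE 0.09). The other neighbour called lower was Ptcd2 (-0.57, SE 0.17, edgeR adjusted p = 0.0354), beside Mrps27, which did not pass the test (-0.38, SE 0.13, edgeR adjusted p = 0.0698). Mrpl51, Mrpl37 and Mrpl40 were lower while Ncapd2 (0.04), Cyb5rl (0.01) and Hira (-0.03) on the other side did not pass the test. Hars2 at 0.04 stood beside Hars1, its cytosolic counterpart, at -0.31 (SE 0.15, edgeR adjusted p = 0.204). Mrpl46 and Mrps11 share their start region with each other, and neither passed the test (-0.11, SE 0.27, and -0.61, SE 0.26). The libraries were made strand-specific, but the setting for strand in the counting is not given in the sources used here, so reads from such neighbours may not have been kept apart.

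Proteins that work with the ribosome were looked up in lists of partners. Of 20 mitochondrial translation factors, 6 were lower in MI and none was higher. The list median was -0.29, and the number called was 1 with library size alone and 4 without Rat_61. The insertase Oxa1l, which places new proteins in the inner membrane, changed by -0.56 (SE 0.09, edgeR adjusted p = 0.000382), and Lrpprc, which stabilises mitochondrial mRNAs, by -0.46 (SE 0.10, edgeR adjusted p = 0.00383). The elongation factors Tufm and Gfm1, the recycling factor Mrrf and the translational activator Taco1 were the other 4, between -0.41 and -0.34.

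Of 26 tested genes for ribosome assembly and rRNA modification, 2 were lower, Gtpbp10 (-0.93, SE 0.26) and Rbfa (-0.53, SE 0.16), which mature the large and the small subunit. That is 7.69% of the list, near the 5.53% of all genes called lower, and the list median was -0.29. Neither gene was called when Rat_17 or Rat_89 was left out or with library size alone, and 1 was called without Rat_12_1, Rat_32, Rat_38, Rat_36 or Rat_61 and with Rat_66 counted in MI. Of 19 genes for mitochondrial tRNA processing, only Hsd17b10, a subunit of the RNase that frees the 5′ ends of the tRNAs, was lower (-0.58, SE 0.10, edgeR adjusted p = 0.000427), and the list median was -0.26. A share of 5.26% of this list was thus called lower, near the 5.53% of all genes. The tRNA end-adding enzyme Trnt1 came next (-0.32, edgeR adjusted p = 0.0652). None of the 5 partners in tRNA charging passed the test, Qrsl1, a subunit of the enzyme that makes charged glutamine tRNA, coming closest (-0.54, SE 0.19, edgeR adjusted p = 0.082), followed by Kars (-0.26, edgeR adjusted p = 0.103), which serves cytosol and mitochondria.

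Gadd45gip1, a large subunit protein without an Mrpl name, was lower (-0.52, SE 0.17, edgeR adjusted p = 0.0495), a call lost without any of 8 rats, with no filter beyond 1 count (edgeR adjusted p = 0.0512) and in a fit of only the 2 groups (edgeR adjusted p = 0.0526), whereas the 4 small subunit proteins without an Mrps name had a median of 0.03 and no call (Chchd1 -0.29 and Aurkaip1 0.05). Of the 19 cytosolic tRNA synthetases, none passed the test, 3 had an unadjusted p under 0.05, and DESeq2 called none either. Their median was -0.10, and the smallest adjusted p was 0.105 (Iars1, -0.27, SE 0.10), with Qars1 at -0.23. Under TMM, the 13 genes that the ribosome translates were all below 0, with a median of -0.19, and 1 passed the test. That is 7.69% of them, near the 5.53% of all genes called lower. Their mean log2 CPM overlapped between Sham (14.19 to 14.45) and MI (13.95 to 14.36). Library size alone raised the median change of all genes from 0.03 to 0.22, and the changes of these 13 genes under it are not given here.

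**Figure D4:**
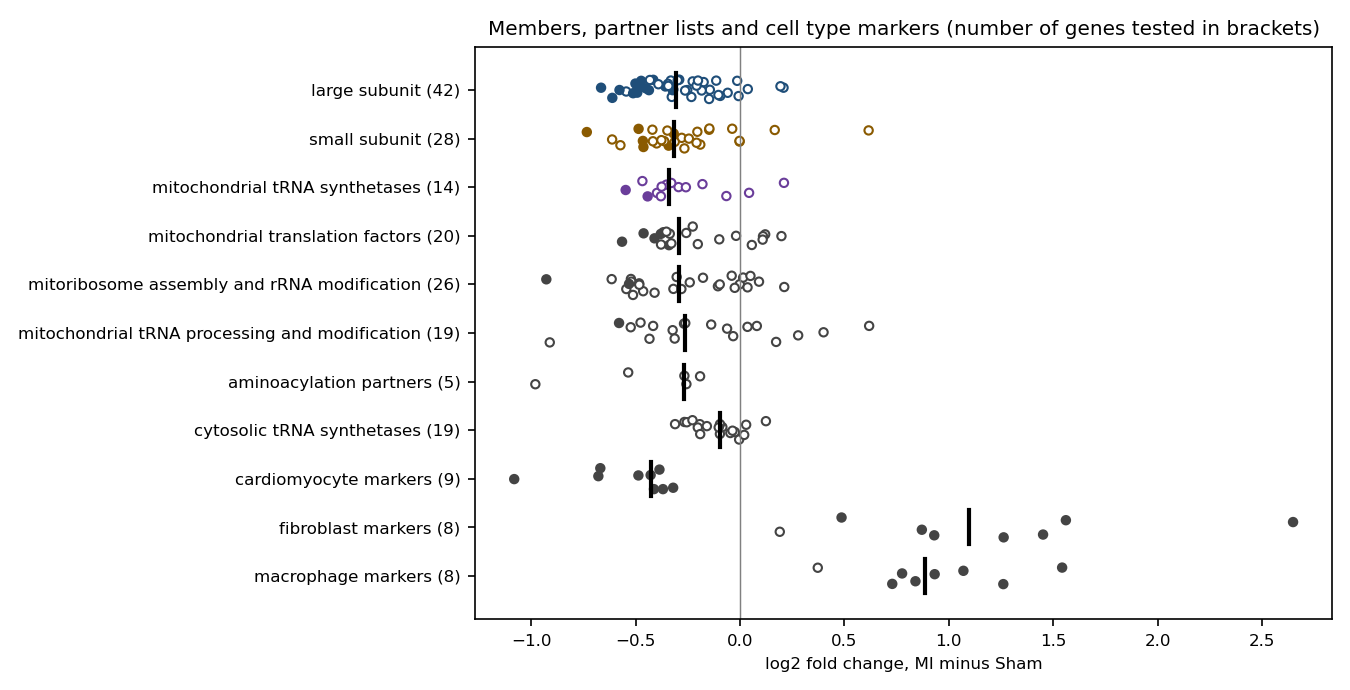
Log2 fold change of MI minus Sham for the 3 member classes, 5 lists of partner genes and 3 lists of cell type markers, with 1 point per tested gene, the median as a black bar and genes with an adjusted p under 0.05 filled. The medians of the members and of the translation factors lie between -0.34 and -0.29, that of the cytosolic synthetases at -0.10 and that of the cardiomyocyte markers at -0.43.

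To ask whether UA changed these genes after infarction, MI + UA was compared with MI. No member passed the test (smallest adjusted p = 1, edgeR), and over all genes 0% were called. DESeq2 called no member either. At an unadjusted p under 0.05, 2 members were higher in MI + UA and none was lower, beside 3.79% of all genes. Mrpl28, a large subunit protein, was at 7.53, 6.59, 8.10 and 9.53 CPM in MI and 9.26, 10.0, 10.8 and 10.4 CPM in MI + UA, overlapping only through Rat_89 and Rat_29 (log2 fold change 0.33, SE 0.15). Mrps30 changed by 0.23 (SE 0.11) with the values given above. The median change was 0.07 for the large subunit, 0.04 for the small subunit and 0.00 for the synthetases, and all 84 members had changes under 0.5 in size, with a median SE of 0.162. No member of the 82 at the level above had groups that did not overlap, beside 2.03% of all genes. Among members that did not reach even an unadjusted p of 0.05, Mrpl47 had a log2 fold change of 0.28 (SE 0.13), Mrps25 of 0.36 (SE 0.20), Ears2 of 0.42 (SE 0.23) and Sars2 of -0.22 (SE 0.17). With Rat_66 counted in MI, Ears2 changed sign to -0.12. A missed threshold does not show that the 2 groups were alike. None of the partner or marker lists had a called gene in this comparison.

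**Figure D5:**
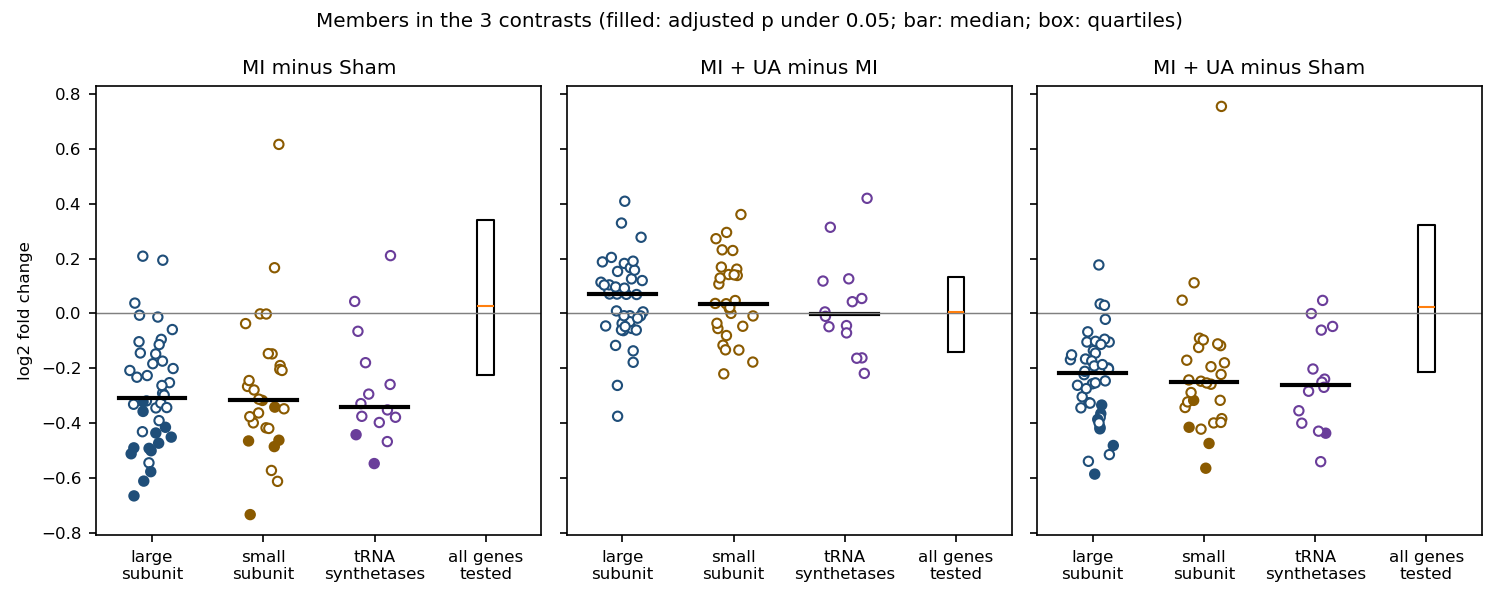
Log2 fold change of each tested member in the 3 contrasts, by class, with the class median as a bar, filled points for an adjusted p under 0.05 and a box for the quartiles of all genes tested. Members lie around 0 in MI + UA minus MI, with medians of 0.07, 0.04 and 0.00, and 77 of 84 lie below 0 in each contrast with Sham.

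MI + UA was also compared with Sham, whose rats are those of the first comparison, so the values are only set side by side. There 11 members were lower (13.1% of 84), beside 4.27% of all genes, and none was higher. They were Mrpl3, Mrpl4, Mrpl16, Mrpl40, Mrpl42 and Mrpl45, Mrps5, Mrps18b, Mrps35 and Mrps36, and Lars2. The call of Lars2 was lost when any of 8 rats was left out, with no filter beyond 1 count (edgeR adjusted p = 0.0593) and in a fit of only the 2 groups (edgeR adjusted p = 0.051). Mrpl3 had a log2 fold change of -0.48 against Sham in MI + UA (SE 0.10, edgeR adjusted p = 0.00446) and of -0.47 in MI. Mrpl15 had -0.30 (SE 0.10, edgeR adjusted p = 0.0542) and -0.49, Mrps35 had -0.56 (SE 0.15, edgeR adjusted p = 0.021) and -0.73, and Cars2, the cysteine enzyme, had -0.54 (SE 0.17, edgeR adjusted p = 0.0545) and -0.38. Cars2 passed the threshold in MI + UA under DESeq2 (adjusted p = 0.0444) and 4 other settings, with adjusted p-values of 0.0429 to 0.0496 over the 5, and DESeq2 called 14 members in all. Medians in MI + UA were -0.22, -0.25 and -0.26 for the large subunit, the small subunit and the synthetases. The rats of MI + UA all lay below Sham in 19 of the 82 members (23.2%), beside 9.08% of all genes at that level. Of the partner lists, 7 of 20 translation factors, 1 of 26 assembly genes and 1 of 19 tRNA processing genes were lower in MI + UA than in Sham, and none of the 19 cytosolic synthetases passed the test. All 9 cardiomyocyte markers were lower in this comparison too, while 7 of 8 fibroblast markers and 7 of 8 macrophage markers were higher. The part of these markers in the comparison was not tested. The count of 11 was 3 without Rat_38, 4 without Rat_17 or without Rat_29, 6 without Rat_58 or without Rat_64 and 7 without Rat_32. It was 0 with library size alone, and 4 when the mitochondrially encoded genes were left out as well.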

How the data were processed

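RNA from 12 rat hearts was analysed, 4 per group by the GEO labels, and 1 further MI + UA library is not analysed here. The deposited values are whole-number counts of reads per gene that the authors made by aligning paired-end reads with STAR 2.6.1c to mRatBN7.2 and counting with HTSeq, per the submitters' processing notes. The strand setting and the handling of reads with several loci are not given in the sources used here. The labels describe the libraries as strand-specific and rRNA-depleted in the protocol and as polyA RNA in the molecule field. The 5 summary lines of the counting were left out, of which reads on no gene were 37.9% to 46.6% of all reads counted.

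Genes with at least 10 counts in all were tested in 1 fit of the 3 groups with edgeR 4.0.16 (R 4.3.3), TMM scaling and the quasi-likelihood F test, with Benjamini-Hochberg adjustment over all genes and a threshold of 0.05. The test was tried on simulated data. Log2 CPM used a prior count of 1. Members, partner lists and marker lists were chosen with earlier results of these data known. The rule for named genes took, in each class, the 5 called members with the smallest p in MI versus Sham, the 2 with the smallest p in each other comparison, the rows with the most and the fewest counts, members with a textbook role and rows under the count minimum, and in each partner list the 2 smallest p. Other members, neighbours and promoter examples were named after their values were seen. Alternatives were DESeq2 1.42.0, other scalings and filters, a fit of 2 groups, leaving out each rat, and counting Rat_66 in MI. No replicate pair agreed within sampling noise. The labels name 1 rat per library, so the spread is between animals. One item is not reported here.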

Additional observations from a re-analysis of the deposited data

Results flagged for a closer look

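Of 120 groups of 4 rats examined, 6 had a rat standing apart by Dixon's test at the 95% level, and chance alone gives about 1 in 20. In Mrpl3, Rat_89 of MI was at 32.7 CPM with the other 3 MI rats between 40.0 and 41.4, and Rat_58 of MI + UA was at 31.5 CPM with the others between 39.9 and 41.5. In Mrps5, Rat_12_1 of Sham was at 10.9 CPM with the others between 12.8 and 13.1. Rat_58 also had 42.9% of its reads on genes, with the other MI + UA rats between 46.7% and 47.2%, and 46.6% on no feature, with the others between 41.5% and 42.3%. Among the MI rats, Rat_61 had 43.3% of reads on genes, with the others between 44.6% and 44.8%.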

How the results depend on the processing

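The choice of scaling mattered most. With library size alone, chosen after seeing the data, MI versus Sham gave 1 called member (0 large subunit, 1 small subunit, 0 synthetases), 6 members without overlap, and class medians of -0.1158, -0.1252 and -0.1484. Leaving out the mitochondrially encoded genes as well gave 10 (7, 3 and 0) and medians of -0.2085, -0.2169 and -0.2418. MI + UA versus Sham then had 0 and 4 called members. The median of all genes was 0.217 and 0.124 under these scalings. The same 21 genes were called by DESeq2, DESeq2 size factors, TMM without the mitochondrial genes and filterByExpr. Synthetase calls numbered 1 with no filter beyond 1 count. With Rat_66 counted in MI, MI versus Sham had 17 called members, 1 of them a synthetase, and Mrpl37, Mrpl40, Mrpl47, Mrps14 and Wars2 lost the call. When each rat was left out, calls in MI versus Sham ranged from 11 to 22 (8 to 13 large subunit, 3 to 7 small subunit, 0 to 2 synthetases), in MI + UA versus Sham from 3 to 15, and in MI + UA versus MI stayed at 0. Signs turned for these named genes. Mrpl46 was 0.07288 with library size alone and -0.2755 to 0.04218 when each rat was left out. Mrps12 was 0.1853 and 0.1008 under the 2 scalings, 0.002414 with filterByExpr and -0.1411 to 0.1989 over the rats. Hars2 ranged from -0.01091 to 0.09558 and Aurkaip1 from -0.01681 to 0.1391. Counting Rat_66 in MI was added for the comparisons with Sham after seeing the data. Ears2 in MI + UA versus MI was -0.1202 with Rat_66 counted in MI. The cause of these shifts was not tested. No paired analysis was possible because each rat belongs to a single group and the groups share no replicate numbers.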
